A study of Mus musculus with 8 samples.

Results

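Mucin transcripts were examined in gastric tumor epithelium with and without Yap1. The 8 genes described are Muc5ac, Muc6, Muc5b, Muc2, Muc1, Muc4, Muc13 and Muc20, chosen by gene symbol among the 27179 entries of the deposited count table, and all 8 were among the 13495 genes that passed the filter on low counts and were tested. EpCAM+ cells were sorted from antral gastric tumors of 4 Gp130FF; Yap1KO mice and 4 Gp130FF; Yap1WT mice, with 1 bulk RNA library per mouse. All 8 mice were homozygous for a mutant gp130 receptor that leads to spontaneous gastric adenomas. By the methods, mice of both groups also carried the Tff1:CreERT2 transgene and floxed Yap1 alleles (Yap1 fl/fl); the labels give the floxed alleles for Yap1KO and no transgene. In Yap1KO mice, tamoxifen activates the Cre recombinase in cells with an active Tff1 promoter, which removes exon 3 of Yap1, so that cells in which this promoter is silent keep the gene. The labels give an age of 18 wk and an interval of 3 days after tamoxifen for every mouse of both groups, while the methods describe vehicle in the Yap1WT group.

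Mucins are long glycoproteins whose repeats, rich in serine, threonine and proline, carry dense O-linked sugar chains. The gel-forming members are secreted and polymerise into mucus, and the membrane members stay anchored in the apical surface of epithelial cells. In the normal stomach Muc5ac is made by the foveolar cells of the surface and pits and Muc6 by mucous neck and pyloric gland cells, whereas Muc2 is the main mucin of intestinal goblet cells. Muc1, Muc4, Muc13 and Muc20 are membrane mucins. YAP1 binds no DNA itself and acts through TEAD transcription factors, and gp130 signals to STAT3, which is why TEAD and STAT motifs were looked for in the promoters.

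The 4 gel-forming genes lie side by side on chromosome 7 (GRCm38) in the order Muc6, Muc2, Muc5ac and Muc5b, between 141633459 and 141873089, a span of 239631 bases, with Muc6 on the minus strand and the others on the plus strand. Muc1 lies on chromosome 3, and Muc4, Muc20 and Muc13 lie on chromosome 16. Muc4 (32735886 to 32782391, plus strand) and Muc20 (32777419 to 32797435, minus strand) overlap at their 3′ ends. Of the annotated exon bases of Muc20, 9.46% are also exon bases of Muc4, against 3.38% of those of Muc4, and because the library kit does not mark strand, reads from that stretch cannot be told apart. The exon bases shared by the pair number 381.

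RefSeq promoter windows of GRCm38.p6 were at hand for 6 of the 8 genes (not for Muc5ac and Muc5b). The 250 bases upstream of the transcription start are shown for Muc6, the gene with the smallest p of the family, for Muc1 and Muc4, which hold a TEAD motif, and for Muc13, which holds a STAT motif. Capitals mark the TEAD motif, which reads GGAATG on one strand and on the opposite strand CATTCC, or the STAT motif TTCNNNGAA. Both strands were searched and no motif overlapped another. The lines run 5′ to 3′ on each gene's own strand.
Muc6, chr7:141655394-141655643, minus strand: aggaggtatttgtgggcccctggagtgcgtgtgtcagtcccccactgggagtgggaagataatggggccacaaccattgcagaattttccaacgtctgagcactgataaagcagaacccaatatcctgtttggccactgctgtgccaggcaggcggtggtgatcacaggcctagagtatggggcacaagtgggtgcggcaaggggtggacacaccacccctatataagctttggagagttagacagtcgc
Muc1, chr3:89228806-89229055, plus strand: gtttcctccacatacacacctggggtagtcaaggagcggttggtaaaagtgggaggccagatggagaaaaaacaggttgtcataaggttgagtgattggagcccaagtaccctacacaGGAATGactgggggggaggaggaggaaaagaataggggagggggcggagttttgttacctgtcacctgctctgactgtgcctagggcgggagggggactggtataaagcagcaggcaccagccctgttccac
Muc4, chr16:32735636-32735885, plus strand: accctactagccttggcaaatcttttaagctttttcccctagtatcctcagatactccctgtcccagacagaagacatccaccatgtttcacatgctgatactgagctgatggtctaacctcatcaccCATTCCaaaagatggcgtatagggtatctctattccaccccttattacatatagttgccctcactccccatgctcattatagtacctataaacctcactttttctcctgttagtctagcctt
Muc13, chr16:33793787-33794036, plus strand: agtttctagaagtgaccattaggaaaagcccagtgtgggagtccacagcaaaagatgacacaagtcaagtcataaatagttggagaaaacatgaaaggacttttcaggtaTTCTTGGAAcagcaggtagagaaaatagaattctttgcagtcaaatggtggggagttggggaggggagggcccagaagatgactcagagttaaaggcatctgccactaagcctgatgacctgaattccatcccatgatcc

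The TEAD motif began at position -132 of Muc1 and -122 of Muc4, counted from the transcription start, and the STAT motif at position -140 of Muc13. Neither motif was in the windows of Muc6, Muc2, Muc20 or a second Muc13 start. Among all 32851 RefSeq windows of this length, 12.6% held the TEAD motif and 7.02% the STAT motif. These matches describe letters in the windows and no binding was measured.

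The coding repeats bear on how reads can be placed. In the longest annotated coding transcript, 21.3% of all stretches of 80 bases, the read length, occurred more than once in the same transcript for Muc5ac, 17.9% for Muc5b, 12.2% for Muc13, 8.80% for Muc6 and 3.44% for Muc4, and none did for Muc1, Muc2 and Muc20. The annotated Muc2 transcript is 2926 bases long, against 10752 bases for Muc5ac, and no Muc2 sequence outside it was searched for repeats. The sources used here do not say how reads with several best positions were treated. Apart from Muc13 (2.53% of stretches), no stretch was found in the transcript of another gene. That search did not compare the mucins with each other on opposite strands, so it leaves out the overlap of Muc4 and Muc20. Exact tandem repeats with a unit of 12 to 120 bases were found in 2 of the genes, over 269 bases in Muc5ac and 433 bases in Muc13. Their units are shown because they are where reads can be placed at several positions, each as a whole number of codons within 1 exon, with the number of exact copies in the coding sequence and no base in capitals.
Muc5ac, chr7:141808651-141808746 (GRCm38), plus strand, exon 31, 3 exact copies, 96 bases: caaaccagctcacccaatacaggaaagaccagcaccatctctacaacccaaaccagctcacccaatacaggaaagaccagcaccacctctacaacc
Muc13, chr16:33799001-33799081 (GRCm38), plus strand, exon 3, 5 exact copies, 81 bases: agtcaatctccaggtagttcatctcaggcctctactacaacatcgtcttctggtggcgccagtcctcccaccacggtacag

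Total counts per library were 18229945 to 74278015 in Yap1KO and 27607755 to 77483047 in Yap1WT, and the 8 mucin genes took 0.358% to 0.649% of them in Yap1KO and 0.317% to 0.479% in Yap1WT. Yap1 itself had 22 to 30 CPM (normalized read counts scaled to one depth, by TMM factors) in Yap1KO and 65 to 79 CPM in Yap1WT. Yap1KO replicate 4, the shallowest library, stood apart in a principal component analysis of the genes with the highest variance in log2 CPM, with a first component of -66.8, while the other Yap1KO libraries had -1.34 to 6.37 and the Yap1WT libraries 12.9 to 17.9. Counts of calls without it are given for the lists of mucus genes and of mucous cell markers. In bulk RNA, fewer cells of a type and less RNA per cell cannot be told apart.

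On the scale of the deposited values, log2 RPKM (scaled to depth and to the length of each gene, which allows genes to be compared), the mucins covered a wide range of levels. Muc1 averaged 8.70 ± 0.18 log2 RPKM (SD over 8 libraries) and Muc6 averaged 8.18 ± 0.77, ranks 107 and 170 of 13819 genes. Muc4 followed at 5.73 ± 0.36, Muc5ac at 4.69 ± 1.71 and Muc13 at 4.47 ± 1.27. Muc5b stood at 1.0 ± 1.2, Muc2 at -0.84 ± 2.09 and Muc20 at -0.92 ± 0.63 log2 RPKM. Of the neighbours in this order, Muc6 exceeded Muc4 and Muc13 exceeded Muc5b in 8 of 8 libraries, by 2.45 ± 0.75 and 3.46 ± 1.17 on the log2 scale. The other neighbours did not differ beyond their spread, with a mean difference smaller than its SD in each pair. Muc1 exceeded Muc6 in 5 libraries, namely Yap1KO replicate 2 and all 4 Yap1WT libraries, while Muc6 was the more abundant in Yap1KO replicates 1, 3 and 4. Between the lowest and the highest library RPKM varied 1.5-fold for Muc1, 2.1-fold for Muc4 and 4.5-fold for Muc6, and 38-fold for Muc5ac and 74-fold for Muc2.

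**Figure D1:**
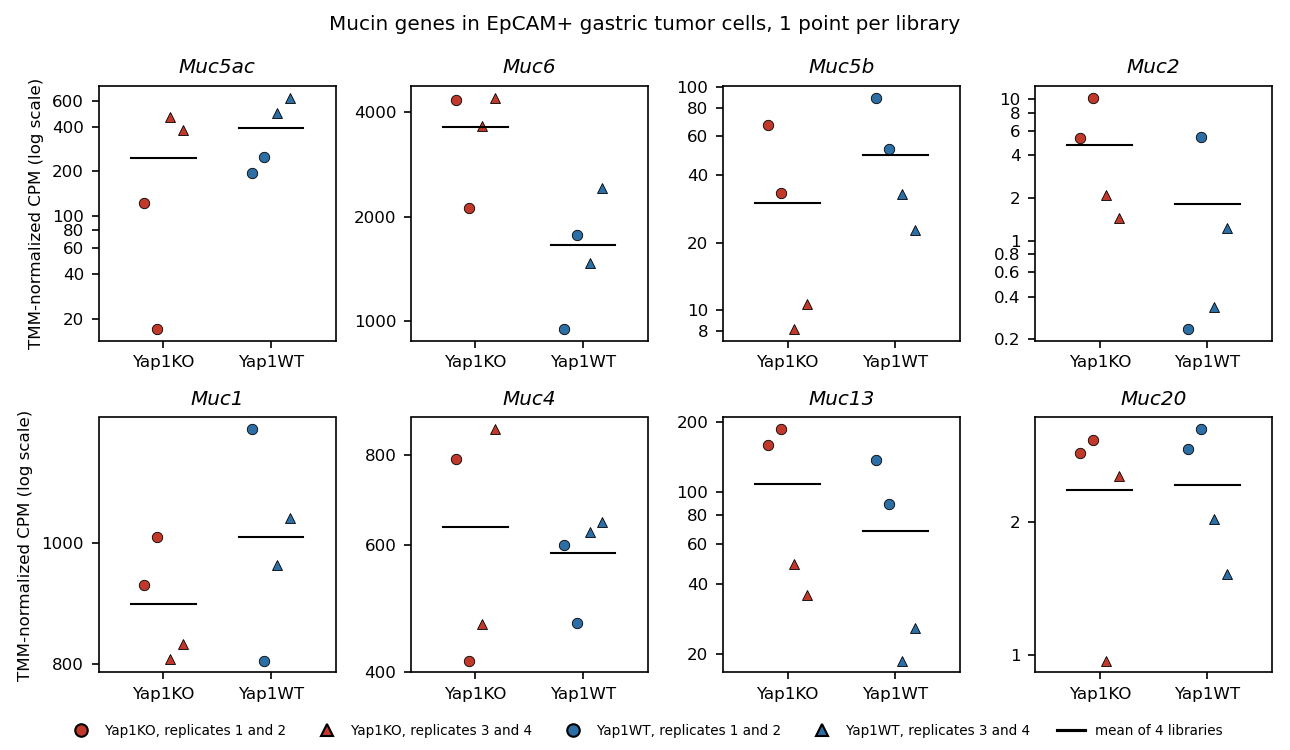
TMM-normalized CPM of each mucin gene (log axis, own scale per panel) in the 4 Yap1KO libraries (red, left) and the 4 Yap1WT libraries (blue, right). Circles are replicates 1 and 2, triangles replicates 3 and 4, and bars the mean of 4 libraries. Muc6 runs from 2122 to 4415 CPM in Yap1KO and from 948 to 2423 CPM in Yap1WT, and the groups overlap in every panel.

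None of the 8 mucin genes passed edgeR's test between Yap1KO and Yap1WT in either direction, while 5.88% of all genes tested passed it, 2.34% lower and 3.54% higher in Yap1KO. Of the 8, 1 gene (Muc6) had an unadjusted p under 0.05, against 1209 genes lower and 1547 higher among the 13495 tested. DESeq2 called 1 of the 8 higher (Muc6) and 0 lower, and limma-voom on quantile-normalized values called 0, with 2 at an unadjusted p under 0.05. For 0 of the 8 did the CPM of the groups fail to overlap, against 13.2% of all genes. The median log2 fold change was 0.23 over the gel-forming and 0.03 over the membrane genes, and -0.01 over all genes tested.

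Muc6, the gel-forming mucin of the glands, came nearest to a call. It had 4342, 2122, 3656 and 4415 CPM in Yap1KO replicates 1 to 4, against 948, 1772, 1474 and 2423 CPM in Yap1WT. Yap1KO replicates 1, 3 and 4 lay above every Yap1WT library, and Yap1KO replicate 2 lay below Yap1WT replicate 4. The means were 3633 ± 1064 CPM in Yap1KO and 1654 ± 615 CPM in Yap1WT (SD, n = 4 each), a log2 fold change of 1.14 (2.20-fold, standard error 0.30, 95% interval 0.47 to 1.80, adjusted p = 0.0543 from edgeR). Over 17 alternatives the log2 fold change ran from 0.94 to 1.38 and the adjusted p from 0.000441 to 0.151, and 6 of them called the gene higher. These were DESeq2 (adjusted p = 0.000441), edgeR without a filter (0.0479), with the mouse-number series as a block (0.0339) and with the replicate number as a block (0.0494), and edgeR without Yap1KO replicate 2 (0.0202) or Yap1WT replicate 4 (0.0295). Without Yap1KO replicate 4 the log2 fold change was 1.03 (adjusted p = 0.14). On the deposited log2 RPKM the groups averaged 8.74 ± 0.43 in Yap1KO and 7.62 ± 0.61 in Yap1WT, a difference of 1.12 with an exact two-sided permutation p of 0.0571 (n = 4 each), where the smallest p this design allows is 0.0286.

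Muc5ac, the foveolar gel-forming mucin, spread widely in the Yap1KO group. It had 121, 16.9, 471 and 385 CPM in Yap1KO replicates 1 to 4, against 196, 249, 496 and 634 CPM in Yap1WT. Yap1KO replicate 2, with 529 reads of the gene, was the lowest library and the ranges overlapped. The log2 fold change was -0.67 (standard error 0.76, 95% interval -2.35 to 1.02, adjusted p = 0.682 from edgeR), an interval that holds large differences in both directions. Without 1 library at a time it ran from -1.17 (without Yap1KO replicate 3) to -0.28 (without Yap1KO replicate 2), and with limma-voom, which averages log values, it was -1.38.

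Muc5b, a gel-forming mucin best known from the airways, had 67.5, 33.5, 8.16 and 10.6 CPM in Yap1KO replicates 1 to 4, against 89.4, 52.8, 33.1 and 22.7 CPM in Yap1WT. Yap1KO replicates 3 and 4 lay below every Yap1WT library, while Yap1KO replicates 1 and 2 lay within the Yap1WT range. The groups thus overlapped (log2 fold change -0.72 with a standard error of 0.63, edgeR adjusted p = 0.584). Without Yap1KO replicate 1 the log2 fold change of Muc5b was -1.52 (adjusted p = 0.213 from edgeR), and without Yap1WT replicate 1 it was -0.27 (adjusted p = 0.870). Muc2, the goblet cell mucin, was rare, at 5.30, 10.3, 2.11 and 1.44 CPM in Yap1KO, against 0.235, 5.43, 0.337 and 1.23 CPM in Yap1WT. Yap1WT replicate 2 stood among the Yap1KO libraries. The log2 fold change of Muc2 was 1.42 (standard error 0.96, 95% interval -0.72 to 3.55, adjusted p = 0.462 from edgeR). Without Yap1WT replicate 2 it was 3.06 (adjusted p = 0.0903), and without Yap1KO replicate 2 it was 0.73 (adjusted p = 0.723).

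Among the membrane mucins, Muc1 and Muc4 varied least of the family. Muc1, a signalling mucin of most glandular epithelia, had 925, 1011, 806 and 830 CPM in Yap1KO replicates 1 to 4, against 1236, 804, 960 and 1048 CPM in Yap1WT. With a log2 fold change of -0.18 (95% interval -0.50 to 0.14, adjusted p = 0.535 from edgeR) it had the narrowest interval of the family. Muc4, which binds the receptor ErbB2, had 789, 414, 466 and 868 CPM in Yap1KO, against 599.7, 467, 625 and 645 CPM in Yap1WT. The 2 highest and the 2 lowest values of Muc4 were all from Yap1KO, and the log2 fold change was 0.12 (95% interval -0.40 to 0.64, adjusted p = 0.830 from edgeR). Muc13, a membrane mucin of gastrointestinal epithelium, had 160.2, 187, 49.0 and 36.0 CPM in Yap1KO, against 137, 89.4, 18.7 and 25.9 CPM in Yap1WT (log2 fold change 0.67 with a standard error of 0.68, edgeR adjusted p = 0.639). Without 1 library at a time the log2 fold change of Muc13 ran from 0.27 (without Yap1KO replicate 2) to 1.28 (without Yap1WT replicate 1). Muc20, the rarest membrane mucin, had 42 to 224 reads per library, or 0.968 to 3.07 CPM in Yap1KO and 1.52 to 3.26 CPM in Yap1WT (log2 fold change -0.05, adjusted p = 0.965 from edgeR).

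**Figure D2:**
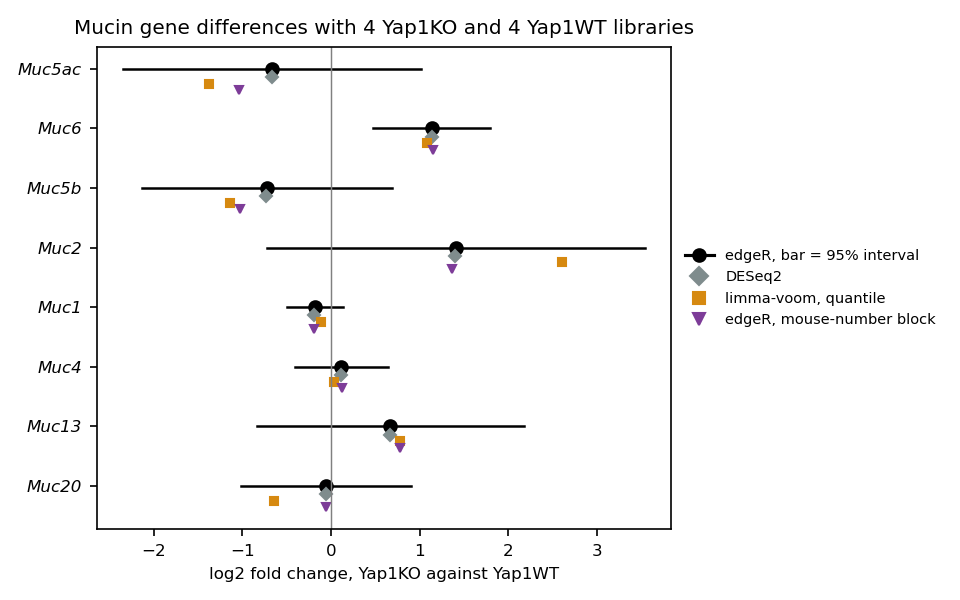
Log2 fold change of each mucin gene, Yap1KO against Yap1WT, from edgeR (black points, bars are 95% intervals), DESeq2 (grey), limma-voom with quantile normalization (orange) and edgeR with a block for the mouse-number series (purple), 4 libraries per group. The interval of Muc6, 0.47 to 1.80, lies above 0, although its p adjusted over all genes was 0.0543, and that of Muc1 is the narrowest, from -0.50 to 0.14.

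Replicates 1 and 2 of both groups came from mice with lower numbers, the first series, and replicates 3 and 4 from mice with higher numbers, the second series. What else set the series apart is not stated in the labels. Of the 8 mucin genes, 4 did not overlap between the series, against 5.57% of all genes. Muc13 had 89.4 to 187 CPM in the first series and 18.7 to 49.0 CPM in the second. Muc5b had 33.5 to 89.4 CPM in the first and 8.16 to 33.1 CPM in the second, and Muc20 had 2.87 to 3.26 CPM in the first and 0.968 to 2.54 CPM in the second. Muc5ac went the other way, with 16.9 to 249 CPM in the first series and 385 to 634 CPM in the second. The difference between the series, first minus second, was -3.23 on the log2 scale in Yap1KO and -1.34 in Yap1WT for Muc5ac, and 2.04 in Yap1KO and 2.33 in Yap1WT for Muc13. The summed level of 10 dissociation stress genes was 6419 to 9145 CPM in the first series and 6044 to 7046 CPM in the second, with 3 of the 10 not overlapping and higher in the first, and their part in these values was not tested.

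Within each series, a comparison added after the values were seen, 3 of the 8 genes had Yap1KO libraries that did not overlap with the Yap1WT libraries, in the same direction in both, against 22.3% of all genes. Muc13 was higher in Yap1KO, at 160.2 and 187 against 137 and 89.4 CPM in Yap1WT in the first series and at 49.0 and 36.0 against 18.7 and 25.9 CPM in Yap1WT in the second. With the series as a block its log2 fold change was 0.77 (standard error 0.18, adjusted p = 0.0274 from edgeR). Muc6 was higher in Yap1KO by 1.23 in the first and 1.09 in the second series on the log2 scale. Muc5ac was lower in Yap1KO in both, with a difference of -2.28 in the first series and -0.40 in the second, and did not pass with the block (log2 fold change -1.04, adjusted p = 0.260 from edgeR). Muc5b, which overlapped in the first series, had -1.02 with the block (adjusted p = 0.0810 from edgeR).

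The balance between gland and surface mucin was followed by the ratio of Muc6 to Muc5ac reads within each library, which needs no scaling between libraries. It was 35.8, 125, 7.77 and 11.5 in Yap1KO replicates 1 to 4, against 4.84, 7.11, 2.97 and 3.82 in Yap1WT. Every Yap1KO library lay above every Yap1WT library, the nearest pair being 7.77 in Yap1KO and 7.11 in Yap1WT. The mean log2 ratio was 4.65 ± 1.81 in Yap1KO and 2.15 ± 0.54 in Yap1WT (SD, n = 4 each), a difference of 2.50, or 5.66-fold, with an exact two-sided permutation p of 0.0286, the smallest the design allows, and 0.0571 when adjusted over the 2 ratios tested. The difference was smallest without Yap1KO replicate 2, at 1.73, and largest without Yap1KO replicate 3, at 3.07, and without Yap1KO replicate 4 it was 2.88. Without any 1 Yap1WT library the exact p was 0.0571 to 0.114, and with the libraries paired by number the exact sign-flip p was 0.125, the smallest that 4 pairs allow. From the deposited log2 RPKM the difference was 2.48 with the same exact p. The ratio of all 4 gel-forming to all 4 membrane genes was 2.42, 1.35, 3.13 and 2.77 in Yap1KO, against 0.624, 1.52, 1.25 and 1.79 in Yap1WT, and it did not pass (log2 difference 0.93, exact two-sided permutation p = 0.0857, n = 4 each).

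**Figure D3:**
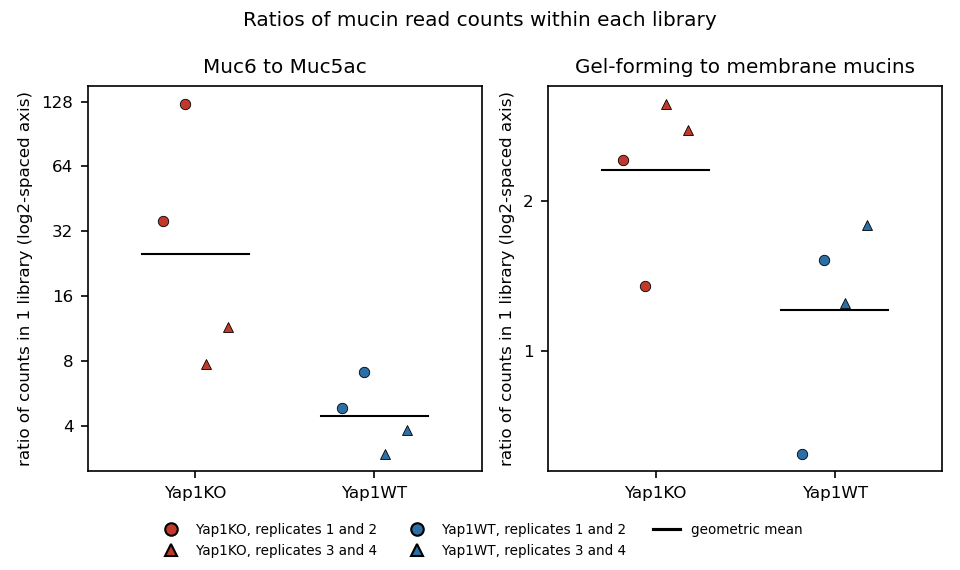
Ratio of Muc6 to Muc5ac read counts (left) and of gel-forming to membrane mucin read counts (right) in each Yap1KO (red) and Yap1WT (blue) library, on log2-spaced axes. Circles are replicates 1 and 2, triangles replicates 3 and 4, and bars geometric means. The Muc6 to Muc5ac ratio is 7.77 to 125 in Yap1KO and 2.97 to 7.11 in Yap1WT.

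Scaled to gene length, 2 genes made up most of the mucin RNA. Muc6 took 34.0% to 51.7% of the summed RPKM of the 8 genes in Yap1KO and 15.2% to 35.6% in Yap1WT, and Muc1 took 35.4% to 52.5% in Yap1KO and 49.1% to 67.7% in Yap1WT. Muc4 took 4.47% to 7.32% in Yap1KO and 6.11% to 7.78% in Yap1WT. Muc5ac took 0.236% to 6.01% in Yap1KO and 3.00% to 8.05% in Yap1WT. These shares overlap for each of the 4 genes, and a share of 1 gene moves with the levels of the others.

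**Figure D4:**
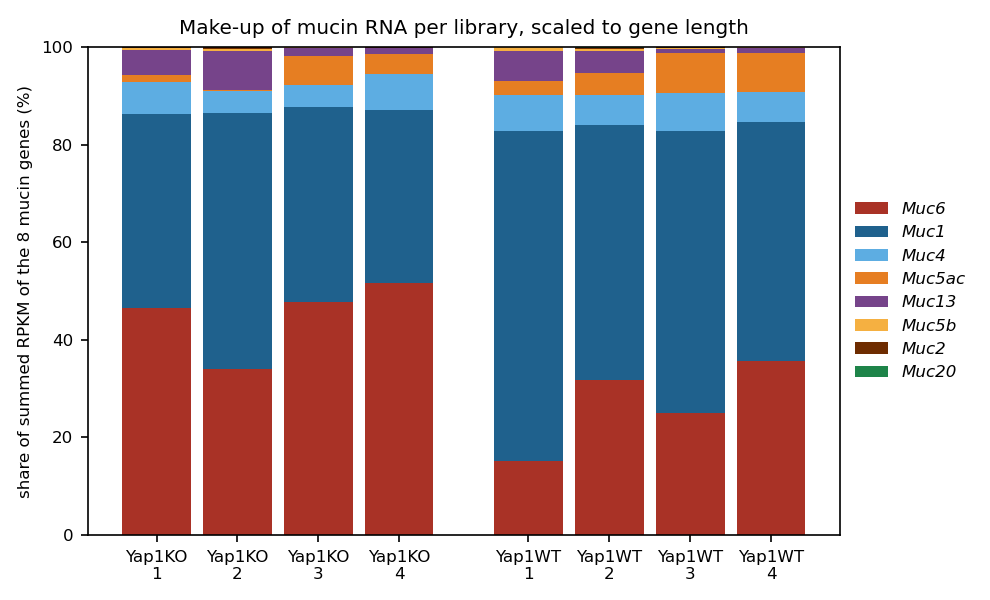
Share of the summed RPKM of the 8 mucin genes taken by each, as stacked bars per library, with Yap1KO replicates 1 to 4 left of Yap1WT replicates 1 to 4. Muc6 and Muc1 fill most of every bar, and the Muc6 share is largest in Yap1KO replicate 4 (51.7%) and smallest in Yap1WT replicate 1 (15.2%).

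Among further mucin genes, 6 of the 12 found in the table were tested, and edgeR called 1 lower and 0 higher in Yap1KO (DESeq2 and limma-voom also 0 higher). Fits without 1 library called 1 lower and 0 or 1 higher. At an unadjusted p under 0.05 in edgeR, 1 gene was higher (Cd34). Over all 13495 genes tested, edgeR called 2.34% lower and 3.54% higher, and 1547 genes were higher at that unadjusted p. Mucl3, which encodes a mucin-like membrane protein and also stood in the list of foveolar markers, had 412, 553, 371 and 875 CPM in Yap1KO replicates 1 to 4, against 1257, 1271, 1783 and 2297 CPM in Yap1WT. The groups did not overlap (log2 fold change -1.58 with a standard error of 0.29, edgeR adjusted p = 0.0115), and each of 8 fits without 1 library kept the call. Cd164, a small sialomucin and the other abundant gene of the list, had 611 ± 48.7 CPM in Yap1KO and 532 ± 44.2 CPM in Yap1WT (SD, n = 4 each; adjusted p = 0.331 from edgeR). Muc15, Muc16, Muc19, Muc21, Mucl2 and Ovgp1 did not pass the filter, with 0 to 118 reads per library.

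Muc3, Tff3 and Cdx2, 3 genes of intestinal type picked after the values were seen because they resembled Muc2 across the libraries, are given as a description. Muc3, an intestinal membrane mucin, had 22.8, 9.98, 7.43 and 1.05 CPM in Yap1KO, against 0.0914, 6.32, 0.689 and 1.2 CPM in Yap1WT (log2 fold change 2.33 with a standard error of 1.09, edgeR adjusted p = 0.265). The goblet cell trefoil peptide Tff3 had 24.7, 27.6, 15.9 and 20.6 CPM in Yap1KO, against 0.797, 24.5, 1.51 and 5.59 CPM in Yap1WT (adjusted p = 0.378 from edgeR). The intestinal transcription factor Cdx2 had 5.66, 4.80, 2.84 and 4.92 CPM in Yap1KO, against 0.105, 4.6, 1.13 and 2.36 CPM in Yap1WT (adjusted p = 0.454 from edgeR). In each of them Yap1WT replicate 1 was the lowest of the 8 libraries and Yap1WT replicate 2 the highest of its group, as for Muc2. The goblet cell gene Zg16 (0.653 CPM in Yap1WT replicate 1 and 15.3 CPM in Yap1WT replicate 2) shared this pattern. So did the absorptive cell gene Alpi (23.7 and 184 CPM in the same libraries). The other tested genes of the goblet and absorptive lists did not. The goblet cell lectin gene Itln1 had 2.71 CPM in Yap1WT replicate 2 and 6.78 CPM in Yap1WT replicate 4, and the fatty acid binding protein gene Fabp1 was lowest in Yap1KO replicate 4 (0.277 CPM).

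Of 36 enzymes that build mucin O-glycans, 31 were tested, with 1 lower and 4 higher in Yap1KO and a median log2 fold change of 0.14. Over all genes tested, 2.34% were lower and 3.54% higher, with a median of -0.01. Gal3st1, which adds sulfate to galactose chiefly of glycolipids, had 65.2, 64.5, 67.0 and 65.9 CPM in Yap1KO replicates 1 to 4, against 99.2, 94.2, 103 and 101 CPM in Yap1WT (log2 fold change -0.60 with a standard error of 0.08, edgeR adjusted p = 0.00178). Galnt18, of the family that starts O-glycans, had 60.2, 73.1, 61.9 and 48.6 CPM in Yap1KO, against 25.5, 33.2, 13.4 and 20.2 CPM in Yap1WT (log2 fold change 1.40 with a standard error of 0.25, edgeR adjusted p = 0.00863). Neither gene overlapped between the groups, and both calls held in 8 of 8 fits without 1 library. Galnt10, another starter enzyme, and Chst4, a sulfotransferase for N-acetylglucosamine, were also higher, by 0.51 and 1.30 on the log2 scale (adjusted p = 0.0406 and 0.0450 from edgeR), as was Galnt1 by 0.37 (adjusted p = 0.0481 from edgeR, named after its values were seen). The calls of Galnt10, Chst4 and Galnt1 held in 3, 2 and 1 of the 8 fits without 1 library. Without Yap1KO replicate 4 only 1 of these enzymes, Galnt18, was called higher. The 2 most abundant enzymes, Gcnt3 and Galnt7, had adjusted p = 0.956 and 0.916. A4gnt, which caps gland mucin glycans with N-acetylglucosamine and was named after its values were seen, had 108, 59.8, 165 and 149 CPM in Yap1KO, against 67.3, 39.6, 123 and 124 CPM in Yap1WT (adjusted p = 0.578 from edgeR).

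Of 23 proteins of mucus assembly or secreted with mucins, 20 were tested, with 2 lower and 3 higher in Yap1KO and a median log2 fold change of 0.17. The shares over all genes tested were 2.34% lower and 3.54% higher, with a median of -0.01. Clca1, a secreted protease that in the mouse intestine cleaves Muc2, had 26.5, 17.4, 20.9 and 26.4 CPM in Yap1KO replicates 1 to 4, against 303, 548, 486 and 681 CPM in Yap1WT. Its 2 ranges lay far apart (log2 fold change -4.47 with a standard error of 0.26), and the call of Clca1 held in 8 of 8 fits without 1 library (adjusted p = 1.90e-05 to 0.000730 from edgeR). Agr2, a protein disulfide isomerase needed for Muc2 assembly in the mouse intestine, had 3473, 4554, 4230 and 4145 CPM in Yap1KO, against 1902, 3414, 1850.5 and 2349.9 CPM in Yap1WT (log2 fold change 0.79 with a standard error of 0.20, edgeR adjusted p = 0.0475). Creb3l4, a transcription factor held in the endoplasmic reticulum, was higher by 0.51 (adjusted p = 0.0181 from edgeR), and Ern2, a stress sensor of mucous cells, was lower at 173 ± 6.19 CPM in Yap1KO and 228 ± 25.3 CPM in Yap1WT (SD, n = 4 each; adjusted p = 0.0481 from edgeR). The gastrokine gene Gkn3 was the third one higher (log2 fold change 0.68). The calls of Agr2, Ern2 and Gkn3 held in 1 of the 8 fits without 1 library each, and that of Creb3l4 in 6. Without Yap1KO replicate 4 none of these was called higher and only Clca1 lower. Tff2, the trefoil peptide secreted with Muc6 and the most abundant gene of the list, had 60924 ± 10838 CPM in Yap1KO and 43223 ± 9987 CPM in Yap1WT (SD, n = 4 each; log2 fold change 0.50, adjusted p = 0.191 from edgeR). Dmbt1, a mucosal glycoprotein and the next in abundance, had 16506 ± 2402 CPM in Yap1KO and 20957 ± 4687 CPM in Yap1WT (SD, n = 4 each; adjusted p = 0.352 from edgeR).

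Of 26 transcription factors of mucous cells, 23 were tested, with 3 lower and 2 higher and a median log2 fold change of 0.12. Among all genes tested, 2.34% were lower and 3.54% higher, with a median of -0.01. Foxq1, needed for Muc5ac expression in the mouse stomach, had 352, 327, 282 and 290 CPM in Yap1KO replicates 1 to 4, against 499.8, 359.5, 442 and 473 CPM in Yap1WT (log2 fold change -0.50 with a standard error of 0.13, edgeR adjusted p = 0.0463). Klf4, a factor of goblet cell and gastric surface differentiation, was lower at 388 ± 45.9 CPM in Yap1KO and 605 ± 78.0 CPM in Yap1WT (SD, n = 4 each; adjusted p = 0.0181 from edgeR), and its relative Klf5 was lower too (log2 fold change -0.39). Spdef, a driver of goblet and gland mucous cell maturation, had 131, 118, 157 and 146 CPM in Yap1KO, against 105, 76.8, 89.7 and 93.9 CPM in Yap1WT (0.59 on the log2 scale, adjusted p = 0.0214 from edgeR). Sox9, a progenitor factor, was higher by 0.63 (adjusted p = 0.0196 from edgeR). None of these 5 factors overlapped between the genotypes, but over the 8 fits without 1 library the calls held in 6 for Klf4, 4 for Spdef, 3 for Sox9 and 1 each for Foxq1 and Klf5. Without Yap1KO replicate 4 edgeR called none of the factors lower and 1 higher, Sox9. Elf3, the most abundant of the list, had an adjusted p of 0.359.

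**Figure D5:**
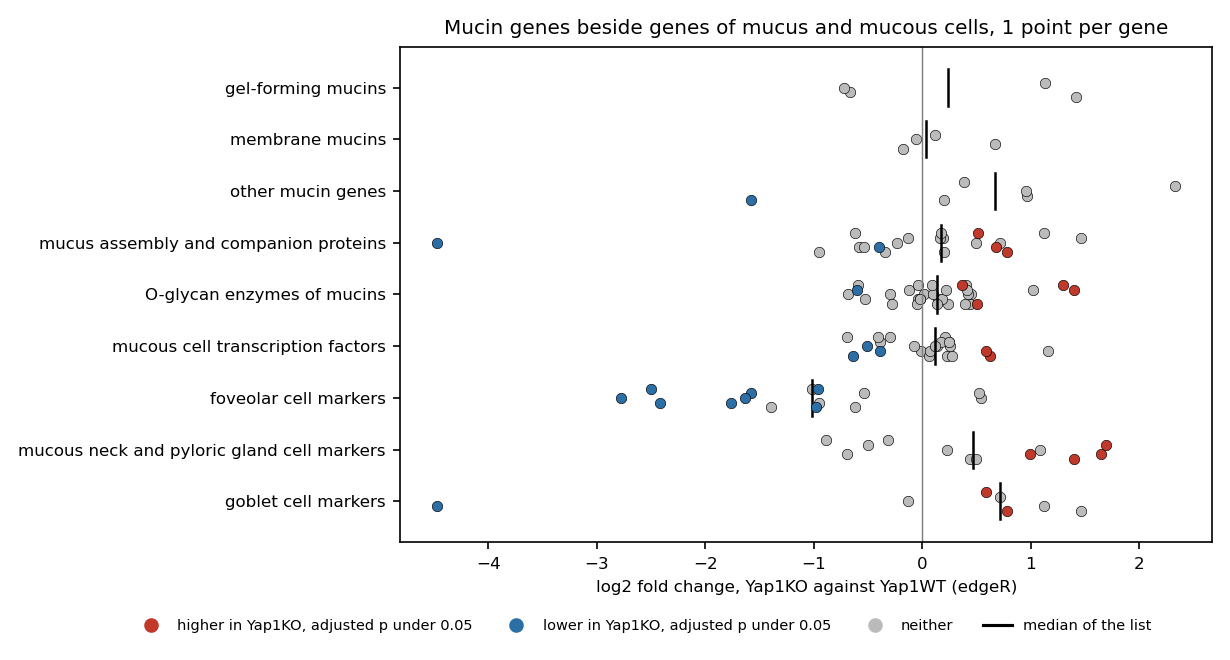
Log2 fold change, Yap1KO against Yap1WT, of each tested gene of the mucin groups and of 7 further lists, with genes called higher in Yap1KO in red, lower in blue and neither in grey, with a bar at each list's median. No mucin of the first 2 lists is coloured, while 8 of 15 foveolar markers are blue (median -1.01) and 4 of 12 mucous neck and pyloric gland markers are red (median 0.47).

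Some markers of the cell types that make these mucins differed between the groups, although none of the 8 mucins passed edgeR's test. The lists were chosen with earlier results of these data known, so their counts are a description. Over all genes tested, edgeR called 2.34% lower and 3.54% higher in Yap1KO. Of 15 foveolar markers tested, edgeR called 8 lower and 0 higher (DESeq2 1 higher, limma-voom 0, and 1 higher at an unadjusted p under 0.05), with summed levels of 28320 to 45171 CPM in Yap1KO and 37572 to 69939 CPM in Yap1WT. Fits without 1 library called 7 to 9 lower and 0 to 1 higher, with 7 lower and 0 higher without Yap1KO replicate 4. Capn9, a foveolar marker that did not pass the filter, had 25, 10, 69 and 0 reads in Yap1KO replicates 1 to 4. In Yap1WT replicates 1 to 4 it had 1335, 798, 2590 and 611 reads. The filter asks for 6 libraries, more than 1 group holds. The sulfotransferase genes Sult1b1 and Sult1c2 were lower, with log2 fold changes of -2.42 and -1.63, and the abundant gastrokines Gkn1 and Gkn2 had -0.62 and -0.95 (adjusted p = 0.172 and 0.109 from edgeR). Ctse, a foveolar marker named after its values were seen, went the other way. It had a log2 fold change of 0.54 and no overlap of the groups (adjusted p = 0.0708 from edgeR). Of 12 mucous neck and pyloric gland markers, 0 were lower (DESeq2 and limma-voom 0, and 0 at an unadjusted p under 0.05) and 4 were higher, with summed levels, mostly of Tff2, of 58102 to 79190 CPM in Yap1KO and 38755 to 59106 CPM in Yap1WT. Each fit without 1 library called 2 or 3 of them higher and 0 or 1 lower, with 3 higher and 0 lower without Yap1KO replicate 4. The adhesion receptor Cd44 had 813 ± 176 CPM in Yap1KO and 251 ± 33.2 CPM in Yap1WT (SD, n = 4 each; adjusted p = 0.000515 from edgeR). Galnt18, given above, was also in this list. The digestive protease gene Pgc had 872 ± 602 CPM in Yap1KO and 1614 ± 1370 CPM in Yap1WT (SD, n = 4 each; adjusted p = 0.526 from edgeR). Of 7 goblet markers tested, 1 was lower (Clca1) and 2 were higher (Spdef and Agr2), with 1 lower and 0 higher without Yap1KO replicate 4, and the most abundant of the others, Fcgbp, had an adjusted p of 0.933. The part of these shifts in the mucin values was not tested.

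Markers of cells that the sort should remove were present too. The summed level of 9 endothelial markers was 592 to 1179 CPM in Yap1KO and 177 to 636 CPM in Yap1WT, with all 9 above 0 in log2 fold change and 1 called higher by edgeR, 4 by DESeq2, 7 by limma-voom and 0 by edgeR without Yap1KO replicate 4. That of 10 fibroblast markers was 428 to 1350 CPM in Yap1KO and 124 to 891 CPM in Yap1WT, with 8 above 0 and none called by edgeR (DESeq2 and limma-voom 0, and 2 higher at an unadjusted p under 0.05). Fits without 1 library called 0 to 7 endothelial and 0 to 1 fibroblast markers higher. Over all 13495 genes tested, edgeR called 3.54% higher, DESeq2 845 genes and limma-voom 571, and edgeR 270 without Yap1KO replicate 4. At an unadjusted p under 0.05, 1547 genes were higher, and the median log2 fold change was -0.01. Of 12 leukocyte markers only 4 passed the filter, at a summed 9.24 to 17.2 CPM in Yap1KO and 9.69 to 17.0 CPM in Yap1WT. The pancreas genes Ctrb1, Prss2, Cela2a and Cpa1, named after their values were seen, did not pass the filter. In Yap1KO replicate 2 they had 8287, 3036, 2009 and 997 reads, and in every other library 0 to 18 reads. Epcam had 1675 ± 101 CPM in Yap1KO and 989 ± 47.7 CPM in Yap1WT (SD, n = 4 each; adjusted p = 0.00188 from edgeR). Their part in the mucin values was not tested.

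Once the group means were removed, the genes whose log2 CPM followed each mucin most closely over the 8 libraries were found among 10644 or 10645 candidates. For Muc6 they were the kinase gene Snrk, the deaminase gene Dctd and Rttn (Pearson r = 0.993, 0.982 and 0.979). For Muc5ac they were the mitotic kinesin gene Kif23, Uck2 and Enpp1 (r = 0.989, 0.989 and 0.987), and for Muc1 the glycolytic enzyme gene Eno1 and Cbx6 (r = 0.974 and 0.972). Muc13 was followed by Asl, Mapk7 and Mug1 (r = 0.980, 0.972 and 0.970), and Muc4 by Trp53bp2, Gtf3c1 and Frrs1 (r = 0.991, 0.990 and 0.988). For Muc5b the genes were Igdcc4, Orai3 and Flrt3, for Muc2 Fam174a, Ly6g6e and Etv4, and for Muc20 Zfp706, Lcmt1 and Bahd1. All points share library, depth and the mouse-number series, so these values only describe 8 libraries. Each named gene was picked as one of the highest r among 10644 or 10645 candidates. How high r would run for unrelated genes over 8 libraries was not tested.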

How the data were processed

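RNA of EpCAM+ antral tumor cells was measured in 8 libraries. The authors aligned 80 bp paired-end reads to GRCm38/mm10 with Subread and made the deposited raw counts with featureCounts against RefSeq genes, and these are whole numbers without normalization. The deposited log2 values were made by the authors with voom and quantile normalization in limma and are log2 RPKM, although their header reads FPKM. The gene lengths used for them are not given in the sources used here. Of the count table, 6 columns matching no sample here stayed unused, and 1277 entries without a symbol (0.552% to 0.789% of counts) and 762 pseudogenes were left out.

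Counts of genes over 0.5 CPM in at least 6 libraries were fitted by edgeR's quasi-likelihood F test (edgeR 4.0.16 under R 4.3.3, scaling by TMM, no covariate, Benjamini-Hochberg adjustment over all genes at 0.05). Replicates are separate mice. Standard errors came from the log2 fold change and F value, and the common biological coefficient of variation was 0.283. Exact permutation tests covered all 70 assignments of group labels. The depth per library, given in the report, bounds only the counting error. Alternatives were limma-voom (limma 3.58.1), DESeq2 1.42.0, RLE factors, library sizes without the 20 most abundant genes, a filter at 4 libraries or none, blocks for the replicate number and the mouse-number series, limma-trend on the log2 values, and leaving out each library. The mucin genes and the gene lists were chosen with earlier results of these data known. All 8 mucins are named. From each list of mucus genes the rule took at most 3 called genes a direction by lowest p plus the 2 most abundant, from marker lists at most 2 and 2. Most marker lists are given by their counts in the report or below. In the absorptive list the name Si was matched to Pmel, which is not an absorptive cell marker. Pmel was not called (adjusted p = 0.9525 from edgeR). Similar genes were the 3 with the highest r among those averaging 5 CPM or more, of which 1 is not reported here. Sequences came from RefSeq (promoters, GRCm38.p6) and GENCODE transcripts (GRCm38), and the limits of the tandem repeat search were widened after a first, stricter search. The fits were tested on simulated data. Plots were drawn with Python 3.11.15 and matplotlib 3.10.9.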

Additional observations from a re-analysis of the deposited data

Results flagged for a closer look

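One mucin value lay far from the rest of its group. In Yap1KO replicate 3 Muc20 stood at 0.0124 on the log2 CPM scale (0.968 CPM, 74 reads), against 1.37 to 1.64 in the other 3 Yap1KO libraries, and the gap to the nearest was 0.836 of the range of the group. It was 1 of 20 groups of 4 values examined, and chance marks about 1 group in 20. Without this library the log2 fold change of Muc20 was 0.21 (adjusted p = 0.813 from edgeR).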

How the results depend on the processing

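The log2 fold changes of Muc5ac, Muc2 and Muc1 kept their direction and stayed uncalled under all 17 alternatives. DESeq2 called Muc6 higher (1.14), so 1 mucin was higher, with 569 genes lower and 845 higher in the whole table. Without a filter 1 mucin was higher (Muc6, 1.13). With the mouse-number series as a block 2 were higher, Muc6 (1.15) and Muc13 (0.77). With the replicate block 1 mucin was lower (Muc5b, -1.03) and 2 were higher, Muc6 (1.15) and Muc13 (0.79), with 553 genes lower and 756 higher in the table, and the Muc6 to Muc5ac ratio kept its difference of 2.50 but had p = 0.125 in the exact sign-flip test. The labels do not say whether mice of the same replicate number are pairs. The deviations of same-numbered libraries correlated at 0.036, 0.347, 0.052 and 0.148, and 3 of 8 libraries correlated best with their own number. So few correlations cannot settle the question. The block changed no other call of a mucin or ratio. Leaving out 1 library at a time gave 0 to 1 mucins higher, 156 to 292 genes lower and 241 to 481 higher in the table. Without Yap1KO replicate 4, 195 were lower and 270 higher, and without Yap1WT replicate 3, 156 and 241. It also gave log2 fold changes of 0.94 to 1.38 for Muc6, -0.069 to 0.28 for Muc4 and -0.22 to 0.21 for Muc20, where the sign of Muc4 turned without Yap1KO replicate 1 or 4 and that of Muc20 without Yap1KO replicate 3 or Yap1WT replicate 1 or 2. The log2 RPKM differences were -0.14 to 0.21 for Muc4, -0.58 to 0.037 for Muc20 and 1.33 to 3.12 for Muc2, whose exact p was 0.0286 without Yap1WT replicate 2, and the Muc6 to Muc5ac ratio differed by 1.73 to 3.07 (exact p = 0.0286 to 0.114). The causes were not tested. Muc2 and Muc20 rest on few reads, 18 to 321 and 42 to 224 per library. Markers of the remaining lists gave few calls: absorptive, chief, enteroendocrine, tuft and squamous cells and dissociation stress genes 0 by edgeR and limma-voom (DESeq2 1 lower absorptive and 1 higher enteroendocrine, and at an unadjusted p under 0.05 3 lower and 1 higher absorptive, 1 lower chief and 4 higher enteroendocrine), parietal cells 1 lower (Car2, with 2 lower by DESeq2, 3 with the mouse-number series block and 3 at an unadjusted p under 0.05), leukocytes 1 higher (Cd68), and the list of erythroid, pancreas and liver markers 1 higher (Cela1).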
